A study of Mus musculus with 6 samples.

Results

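The cytochrome P450 genes of the mouse lung were taken as every gene of the deposited table whose symbol is Cyp followed by a number, a letter and a number or the end of the name. The Cyp1 and Cyp26 families, Cyp51 and pseudogenes were left out. The rule found 36 of the 21900 genes listed. Bulk RNA-seq had been made from whole lungs of mice after 10 weeks of a high fat diet, which all 6 libraries share. The labels place 3 libraries as wild type and 3 as Cyp1b1 knockout, with 2 females (numbered 1 and 2) and 1 male (numbered 3) in each, and the series set out to examine loss of CYP1B1 under that diet. The sources used here do not give strain, age or the form of the knockout allele. Whether each library is its own animal is not stated, so the p-values here speak only of the spread from library to library. Levels are in CPM (counts for every 1000000 reads that fell in genes), and a run of 3 values under a label is in the order 1, 2 and 3, the male last. The labels carry no replicate numbers, and these only name the libraries.

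Cytochrome P450 enzymes hold a haem whose iron is bound by a cysteine, and they use oxygen and electrons to oxidise a bound substrate. Those of the endoplasmic reticulum receive the electrons from cytochrome P450 reductase, encoded by Por, and the mitochondrial ones from ferredoxin. In the mouse lung most of this activity sits in club cells, the secretory cells of the bronchioles, where it turns inhaled compounds such as naphthalene into reactive products. Other members oxidise fatty acids and eicosanoids, sterols, bile acids, vitamin D or steroid hormones.

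The libraries held between 20.2 and 27.6 M reads (M, 1000000), and 3 reads, used as a floor, were worth between 0.109 and 0.148 CPM; this covers counting error only. Cyp1b1, the targeted gene and no member of the set, was at 12.5, 19.04 and 18.5 CPM under the wild type label and at 51.2, 56.1 and 48.4 CPM under the knockout label. It was therefore higher in the libraries labelled knockout, and every direction given here is between labels. The males were the libraries least like the rest: the leading principal component (38.4% of the variance) set off the male labelled knockout, and the second (32.6%) that labelled wild type.

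The loop that holds the haem is what makes these proteins a family, so its coding sequence is shown for the 5 most abundant members per length. Each line gives 30 coding bases from the GENCODE M21 transcripts (mm10), 5′ to 3′, and the capitals mark the codon of the cysteine that binds the haem iron.
Cyp2f2: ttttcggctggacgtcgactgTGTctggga
Cyp4b1: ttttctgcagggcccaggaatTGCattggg
Cyp2b10: aagtctgtgggaaagcgcattTGTcttggt
Cyp2s1: tactccttaggtaagcgagtcTGCctggga
Cyp2a5: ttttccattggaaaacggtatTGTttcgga
The loop was searched in the translated coding sequence as a glycine, then 3 further residues, a cysteine, 1 further residue and a glycine, past 70% of the protein. Only the transcript with the longest coding sequence was searched for each gene. The loop was found in 35 of the 36 members, all but Cyp20a1. In 32 of the 36 it carried the family's phenylalanine at its start. Cyp2b10 is 1 of those without it. Other transcripts of Cyp2b10 were not examined, so this holds for the transcript used only. The coding sequence used for Cyp2b10 holds 27 bases that have no counterpart in its closest relative in the set, Cyp2b9. A phenylalanine codon, ttc, lies shortly before these 27 bases. They begin before the loop and end inside the stretch printed for it, and are the capitals in the next line, which covers coding bases 1279 to 1350.
Cyp2b10: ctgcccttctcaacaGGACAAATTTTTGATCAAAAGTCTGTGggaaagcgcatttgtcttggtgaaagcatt

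P450 RNA in these lungs was dominated by Cyp2f2, the club cell enzyme that activates naphthalene. Cyp2f2 stood at 3017, 3925 and 2422 CPM under the wild type label and at 3723, 3523 and 3056 CPM under the knockout label. Divided by transcript length it reached 1757 ± 296 CPM per kilobase (SD, n = 6), rank 17 among 16300 protein-coding genes. The lowest of the 6 was the male labelled wild type, and the labels overlapped. In bulk tissue, fewer cells of a type and less RNA per cell cannot be told apart. Of the summed per-length level of all 36 members, Cyp2f2 held 69.7 ± 3.50% (SD, n = 6), between 63.5% and 73.6%.

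The next members were far below it. Cyp4b1, a lung enzyme that activates aromatic amines and ipomeanol and also oxidises fatty acids, reached 324 ± 60.4 CPM per kilobase (SD, n = 6; rank 103). Cyp2b10, the classical target of the receptor CAR, reached 153 ± 39.3 CPM per kilobase (SD, n = 6; rank 260). Their ranges touched across libraries, at 218 to 405 and 115 to 227 CPM per kilobase, but Cyp4b1 was the higher in each of the 6 libraries. Cyp2s1, an epithelial P450, stood at 75.2 ± 17.4 CPM per kilobase (SD, n = 6; rank 618), below every value of Cyp2b10 by longest transcript. Cyp2a5, which oxidises coumarin and nicotine, stood at 69.7 ± 35.4 CPM per kilobase (SD, n = 6; rank 673). By that length, Cyp2s1 and Cyp2a5 did not differ beyond their spread. The choice of length matters for Cyp2s1, with 3161 bases in its longest transcript and 1503 in its coding sequence. By coding length the means were 195 for Cyp2b10, 158 for Cyp2s1 and 94.6 CPM per kilobase for Cyp2a5. In CPM, Cyp2s1 was above Cyp2b10 in labelled wild type 2 (315 and 294) and labelled knockout 1 (264 and 239). It was below Cyp2b10 in the others. The 5 members held 69.7%, 12.9%, 6.10%, 2.98% and 2.74% of the sum, and the other 31 together 5.59 ± 1.07% (SD, n = 6).

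**Figure D1:**
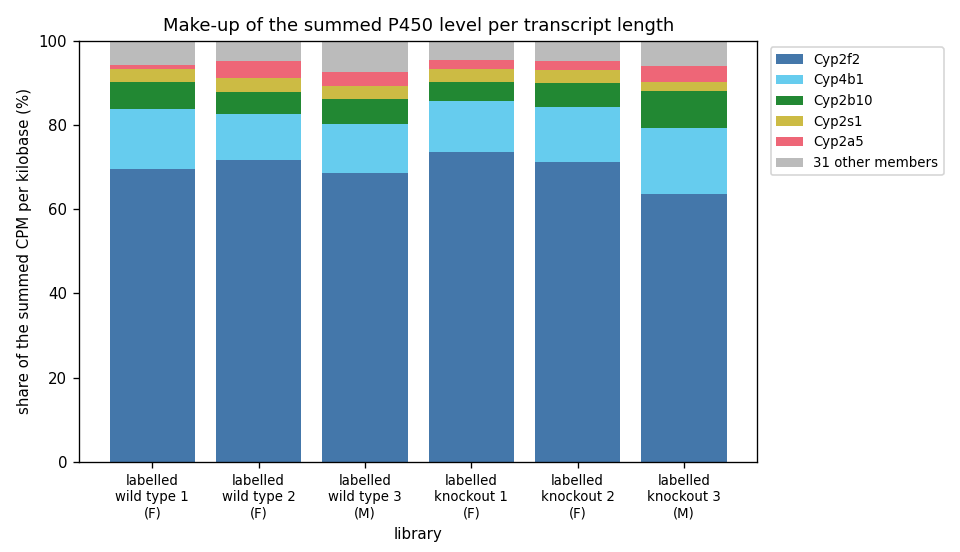
Share of each of the 5 leading P450 genes and of the other 31 in the summed CPM per kilobase (%), stacked for each of the 6 libraries (F female, M male). Cyp2f2 takes between 63.5% and 73.6% of every bar, and the band of Cyp2a5 is thinnest in labelled wild type 1, at 0.99%.

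By role, the 13 members for drugs and inhaled compounds held 82.7% of the summed per-length level, of which Cyp2f2 alone was most. The 14 for fatty acids and eicosanoids held 15.6%, mainly Cyp4b1. Roles were set by family and subfamily name alone. Cyp4b1, with 12.9% of the sum, counts here by its family although it also activates aromatic amines and ipomeanol. The split between these 2 roles therefore depends on where it is placed. The 6 for sterols, bile acids and vitamin D held 1.16%, the 2 for steroid hormones 0.0129%, and the orphan Cyp20a1 0.439%. By mean, 26 members reached 1 CPM, 16 reached 10 CPM and 5 reached 100 CPM. A total of 26 members were above the floor in every library, and no member was at or under it in all 6. The 27 members tested passed a filter, a mean of at least 0.5 CPM. Among them, Cyp2e1 ranged between 8.65 and 20.9 CPM and Cyp3a13 between 5.33 and 8.95 CPM. Both count with the members for drugs and inhaled compounds.

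**Figure D2:**
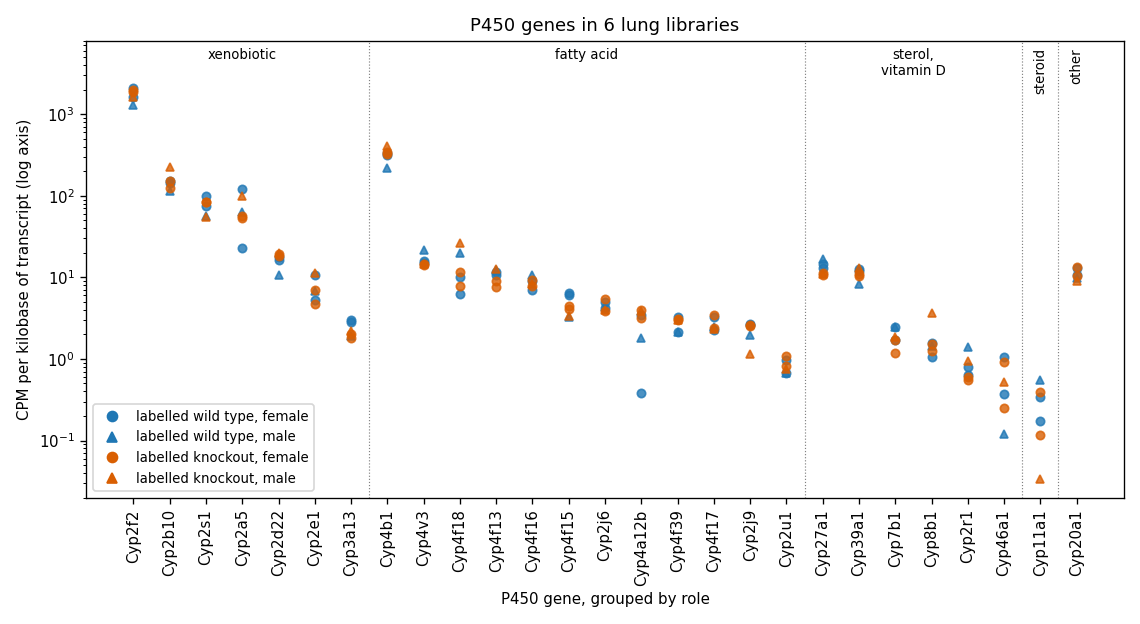
CPM per kilobase of transcript on a log axis for the 27 P450 genes tested, grouped by role, with 1 point per library (circles females, triangles males; colour gives the genotype label). Cyp2f2 lies above all other genes in every library, and Cyp2a5, Cyp4f18 and Cyp4a12b are spread widest among the genes that average 5 CPM or more.

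The abundant members of the drug-metabolising group were neighbours on chromosome 7. The table holds 9 members in 1.33 Mb of that chromosome (mm10, 25802475 to 27133660), and 4 of the 5 leading P450 genes lie there. Cyp2s1 (25802475 to 25816913, minus strand), Cyp2b10 (25897620 to 25926624), Cyp2a5 (26835305 to 26843548) and Cyp2f2 (27119909 to 27133660) were each above 20 CPM per kilobase in all libraries. The 5 genes between them, Cyp2b9, Cyp2a4, Cyp2b19, Cyp2g1 and Cyp2a12, had means of at most 0.333 CPM. Cyp2b9 gave reads in both wild-type-labelled females (0.168 and 0.495 CPM) and none in the other 4 libraries. Cyp2g1, known from the olfactory mucosa, reached at most 0.359 CPM. Cyp4b1 lies apart, on chromosome 4 (115624725 to 115647723, minus strand).

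**Figure D3:**
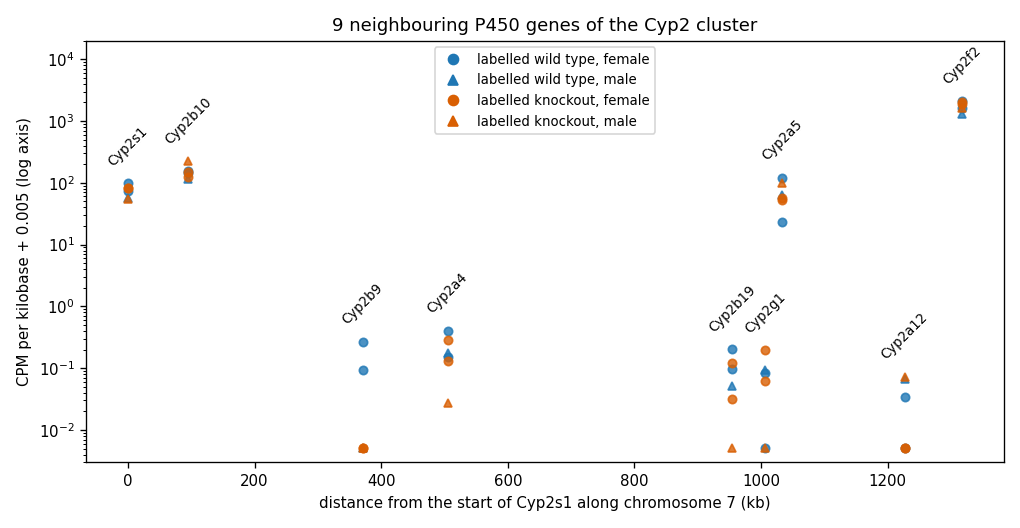
CPM per kilobase plus 0.005, on a log axis, of 9 P450 genes against their distance from the start of Cyp2s1 on chromosome 7 (kb), with 1 point per library. Cyp2s1, Cyp2b10, Cyp2a5 and Cyp2f2 lie orders of magnitude above the 5 genes between them; points at the bottom edge are libraries without a read.

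The pair Cyp2a4 and Cyp2a5 shows what read assignment can and cannot separate here. Their coding sequences differ at 23 of 1482 bases, an identity of 98.4%. Coding bases 596 to 655 are printed for both, since 4 of the 23 differences, in capitals, fall in that window.
Cyp2a4: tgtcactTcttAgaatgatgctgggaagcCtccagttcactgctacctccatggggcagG
Cyp2a5: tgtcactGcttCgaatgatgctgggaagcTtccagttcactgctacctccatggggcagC
Of all 50-base stretches of the Cyp2a5 transcripts, 40.8% occur in another gene's transcripts, those of Cyp2a4 among them, and 38% of those of Cyp2a4 do. Cyp2a4 was at 0.251, 0.694 and 0.299 CPM under the wild type label and at 0.497, 0.218 and 0.0391 CPM under the knockout label. The split between the pair is uncertain, since no source used here tells how reads that match both were handled. Overlap was largest for Cyp4a12b, at 49.4% with Cyp4a12a. Of the other members, 5 had over 10% of their 50-base stretches in another gene: Cyp2a12, Cyp4f16, Cyp4f37, Cyp2b9 and Cyp4b1. Cyp2f2 shared none, and 14 members in all shared none.

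Some members varied far more between libraries than most genes. Cyp2a5 was at 46.3, 244 and 127 CPM under the wild type label and at 107, 114 and 203 CPM under the knockout label. The ratio of its highest to its lowest library was 5.22 after adding 0.5 CPM, more than for 97.8% of the genes that average 5 CPM or more. Cyp4a12b, an enzyme that hydroxylates arachidonic acid at its tail, was at 0.921, 8.21 and 4.31 CPM and at 7.53, 9.64 and 9.28 CPM in the same order, a ratio of 7.14 that 98.6% of genes did not reach. Both were lowest in labelled wild type 1. The median ratio over the 21 members at that level was 1.67, beside 1.49 over 12911 genes, and Cyp2j6 was the steadiest at 1.39.

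Of the 12 club cell markers, all found, 5 were also lowest in labelled wild type 1 (Bpifa1, Bpifb1, Krt15, Muc5b and Scgb3a1), 2 were lowest in the male labelled wild type and 5 in the male labelled knockout. Krt15 (0.209 to 2.15 CPM) and Upk3a (at most 0.627 CPM, lowest in the male labelled knockout) rest on few reads. Bpifa1, which encodes a secreted airway protein, was at 32.6 CPM in labelled wild type 1 and between 161 and 649 CPM in the other 5 libraries. Muc5b, an airway mucin, was at 80.3 CPM there and between 222 and 527 CPM elsewhere. Scgb3a1, a secretoglobin of the larger airways, was at 80.8 CPM there and between 127 and 450 CPM elsewhere. Scgb1a1, the defining club cell secretoglobin, was among the others: it was at 23722, 23890 and 14852 CPM under the wild type label and at 19476, 24282 and 9396 CPM under the knockout label. The 12 markers summed to between 16382 and 27090 CPM in the libraries labelled wild type and between 11177 and 27058 CPM in those labelled knockout, and their part in the P450 levels was not tested. Hepatocyte markers, of which 9 of 10 were found and 3 tested, summed to between 3.10 and 16.4 CPM. The sum was highest in labelled wild type 2, where Alb was at 9.15 CPM, beside 0.461 to 1.38 CPM elsewhere. Apoa1, Apoa2, Apoc3, Serpina1b and Ttr, all under the filter, were highest there too. Not every marker followed: Tat was at 2.13 CPM there and highest in the male labelled knockout, at 5.30 CPM. Fgb was also highest in that male, at 0.468 CPM, and Ahsg in labelled knockout 2. Of the members under the filter, Cyp2b9, Cyp2c23, Cyp2a4, Cyp4f40 and Cyp4f37 were also highest in labelled wild type 2. Cyp2b19, Cyp2g1, Cyp17a1 and Cyp2a12 were highest in other libraries. The part of liver RNA in these values was not tested.

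The members for fatty acids and eicosanoids were present at low to moderate levels, apart from Cyp4b1. Cyp4v3, a hydroxylase of medium-chain fatty acids, was at 57.2, 60.3 and 82.1 CPM under the wild type label and at 55.6, 53.6 and 56.3 CPM under the knockout label. The male labelled wild type was the highest and the libraries labelled knockout lay close together. Cyp4f18, which inactivates leukotriene B in neutrophils, was at 17.1, 10.5 and 33.7 CPM and at 19.8, 13.2 and 44.7 CPM in the same order. Both males were above all 4 females. Cyp4f13, of the same leukotriene-hydroxylase subfamily, was at 18.6, 20.6 and 21.3 CPM and at 13.2, 15.9 and 22.3 CPM in that order, and its labels overlapped. Of the remaining members of this role that were tested, Cyp4f16, Cyp4f15, Cyp4f17 and Cyp4f39 ranged between 5.54 and 23.7 CPM. The epoxygenases Cyp2j6 and Cyp2j9 ranged between 13.9 and 19.4 and between 2.92 and 6.78 CPM, and Cyp2u1, which oxidises arachidonic acid, between 2.92 and 4.77 CPM. Cyp4f40 and Cyp4f37 did not pass the filter. A block of 7 Cyp4f genes occupies chromosome 17 from 32452723 to 32947402 (mm10), 46.8 Mb from Cyp1b1. Counting Cyp39a1, chromosome 17 carries 8 members, of which 6 were tested.

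The sterol group was led by Cyp27a1 and Cyp39a1. Cyp27a1, the mitochondrial enzyme that hydroxylates the cholesterol side chain, was at 27.6, 24.5 and 31.5 CPM under the wild type label and at 20.4, 21.3 and 20.7 CPM under the knockout label. The labels did not overlap. Cyp39a1, an oxysterol hydroxylase, was at 36.05, 38.6 and 25.4 CPM and at 31.9, 33.7 and 40.2 CPM in that order, lowest in the male labelled wild type and highest in the male labelled knockout. Cyp7b1, another oxysterol hydroxylase, ranged between 2.55 and 5.38 CPM, Cyp8b1, a bile acid enzyme, between 2.05 and 7.17 CPM, Cyp2r1, a vitamin D hydroxylase, between 1.03 and 2.65 CPM, and Cyp46a1, the cholesterol hydroxylase of the brain, between 0.256 and 2.23 CPM. Cyp20a1, whose substrate is unknown, was at 23.7, 29.03 and 22.03 CPM and at 22.8, 29.7 and 19.999 CPM in the same order, with the males lowest.

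Members for steroid hormone synthesis were close to the floor. Cyp11a1, the enzyme that opens steroid synthesis by cutting the cholesterol side chain, ranged from 0.117 to 1.92 CPM, and its lowest library, the male labelled knockout, was at its floor of 3 reads. Cyp17a1, the next step in androgen synthesis, gave reads in 2 libraries only, at 0.470 and 0.314 CPM. With the remaining members under the filter, Cyp2c23 (up to 1.04 CPM) and Cyp2b19 (up to 0.544 CPM), this makes 9 members that were not tested.

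The partners that P450 enzymes need differed widely in level, and none of them passed the test between labels. Por, which passes electrons to the microsomal P450s, was at 380, 559 and 335 CPM under the wild type label and at 368, 418 and 348 CPM under the knockout label. The summed per-length level of the 36 members was 16.8 ± 2.33 times that of Por (SD, n = 6), between 13.9 and 19.5. On the mitochondrial side Fdxr, the ferredoxin reductase, was between 5.32 and 8.88 CPM. Among 10 redox partners tested, none passed the threshold for genotype and the median log2 difference was 0.00, with 5 above 0; the smallest p were those of Fdx1, the mitochondrial ferredoxin, at −0.22, and Pgrmc1, a haem-binding partner, at 0.17. Among 13 genes of haem synthesis and breakdown none passed either, with a median of −0.11, and Alas1, which controls haem supply outside red cells, was at −0.29 and Ppox at −0.31. Among 21 receptors and transcription factors known to drive P450 genes the median was −0.19, with 5 above 0. Over all genes tested the median was −0.06, with 40.1% above 0. None of the 21 passed. The clock-controlled factor Dbp was nearest, at a log2 difference of −1.67 (SE 0.18, limma adjusted p = 0.0508), and its relative Hlf followed at −0.73 (SE 0.19, limma adjusted p = 0.775). The receptors behind drug induction in liver were barely present: Nr1i2, which encodes PXR, ranged between 0.598 and 2.32 CPM and Nr1i3, which encodes CAR, between 0.104 and 1.53 CPM. Of the 2 P450 genes named otherwise, Ptgis, the prostacyclin synthase, was between 88.9 and 113 CPM, and Tbxas1, the thromboxane synthase, between 7.57 and 20.96 CPM and higher in males (log2 difference 1.17, limma adjusted p = 0.0469).

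No P450 gene of the set passed the test between the genotype labels. limma was run on log2(CPM + 0.5) with sex as a second term, and p-values were adjusted over all 17382 genes tested by the Benjamini-Hochberg method; 0 of 27 members had an adjusted p under 0.05, where 0.0115% of all genes did. At an unadjusted p under 0.05 the count was 2 of 27 members, beside 5.13% of all genes. These were Cyp27a1, with means of 27.9 ± 3.47 and 20.8 ± 0.47 CPM (SD, n = 3 each) in the libraries labelled wild type and knockout, and Cyp2d22. Cyp27a1 differed by −0.41 on the log2 scale (SE 0.14, limma adjusted p = 0.775). Cyp2d22 is a drug-metabolising member of the debrisoquine hydroxylase subfamily. It was at 59.7, 56.2 and 36.2 CPM under the wild type label and at 62.8, 66.6 and 68.5 CPM under the knockout label. Its log2 difference was 0.41 (SE 0.16, limma adjusted p = 0.775) and came to 0.16 in the females alone. Cyp4a12b had the third smallest p, at 1.25 (SE 0.58, limma adjusted p = 0.775), and moved to 0.47 or 1.96 when labelled wild type 1 or 2 was left out. None of the 3 passed after adjustment over all genes.

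The labels did not overlap for 3 of the 27 members, beside 9.52% of all genes. Cyp2d22 was higher in the libraries labelled knockout, as 3.63% of all genes were, and Cyp27a1 and Cyp4v3 were lower, as 5.89% were. Cyp4v3 differed by −0.25 (SE 0.12), and by −0.10 in the females alone. An exact permutation test, two-sided, gave p = 0.1 for each, the smallest value that 3 libraries against 3 can give. Any gene whose labels do not overlap receives that value, so the test adds nothing for genes picked this way. The 5 leading members did not separate. The log2 difference was 0.16 (SE 0.20) for Cyp2f2, 0.32 (SE 0.18) for Cyp4b1, 0.24 (SE 0.21) for Cyp2b10, −0.05 (SE 0.13) for Cyp2s1 and 0.26 (SE 0.50) for Cyp2a5, with limma adjusted p between 0.775 and 0.929. Cyp4b1 stood at 0.03 in the females alone. Cyp2f2 stood at 0.07 in the females alone and at 0.29 without labelled wild type 2. The sign for Cyp2s1 turned with median centring, for Cyp2b10 when only females were used, and for Cyp2a5, to −0.36, without labelled wild type 1.

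Over the members, 13 of 27 differences lay above 0 and the median was −0.01, beside 40.1% above 0 and a median of −0.06 over all genes tested. Median centring moved the median of all genes by 0.10, and 18 of 27 members then lay above 0, with a median of 0.09 beside 0.05 over all genes. By role and without centring, 4 of 7 members for drugs and inhaled compounds, 6 of 12 for fatty acids and 3 of 6 for sterols lay above 0. The 6 tested members on chromosome 17, where Cyp1b1 lies, ran from −0.33 to 0.29, with 3 on each side of 0.

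**Figure D4:**
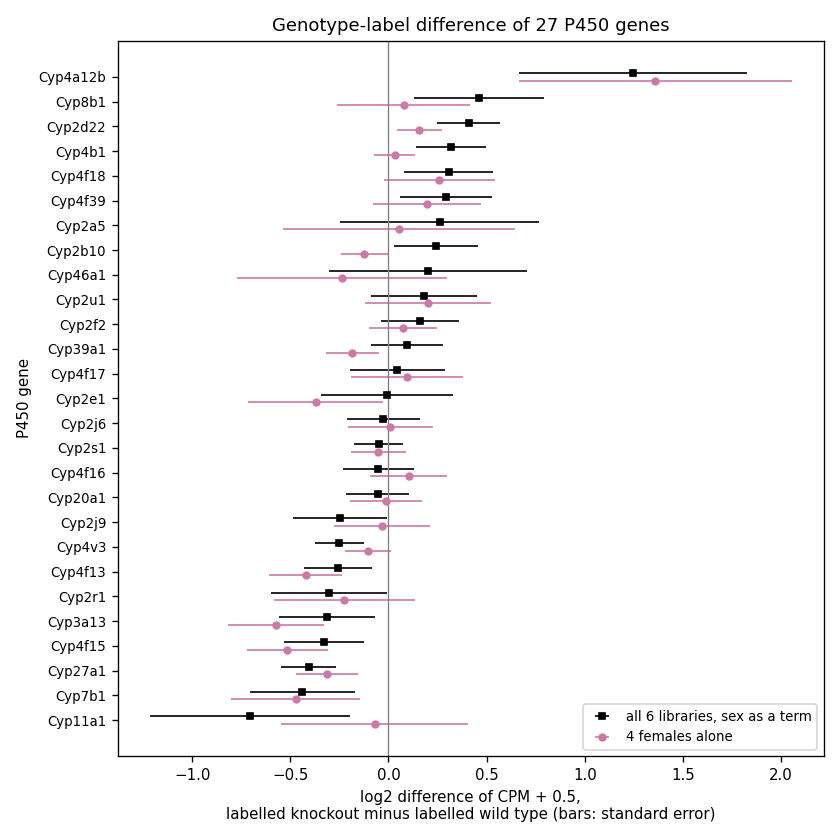
Log2 difference of CPM + 0.5 between the labels (knockout minus wild type) for the 27 P450 genes tested, with bars of 1 standard error; squares use all 6 libraries with sex as a term and circles the 4 females alone. Values lie on both sides of 0, and Cyp2b10 moves from 0.24 to −0.12 and Cyp4b1 from 0.32 to 0.03 when only females are used.

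Between the sexes, no member passed the threshold either, in a set of libraries with 4 females and 2 males. The count was 0 of 27 beside 0.834% of all genes, and at an unadjusted p under 0.05 it was 4 of 27 beside 15.3%. Cyp4f18 came nearest: the males stood at 33.7 and 44.7 CPM and the females between 10.5 and 19.8 CPM, a log2 difference of 1.37 (SE 0.24, limma adjusted p = 0.0520). Neutrophil markers, 11 of 11 found, summed to 336 and 6289 CPM in the males labelled wild type and knockout and to between 182 and 252 CPM in the females. Their part in the level of Cyp4f18 was not tested. Cyp2s1 was lower in males, at 177 and 172 CPM, while the females stood at 236, 315, 264 and 262 CPM. That log2 difference was −0.62 (SE 0.13, limma adjusted p = 0.0858). The summed club cell markers, mostly Scgb1a1, were lower in males as well, at 16382 and 11177 CPM against 21627 to 27090 CPM. Not every marker followed the sum: Bpifa1 stood at 161 and 539 CPM in males and between 32.6 and 649 CPM in females. Over the 11 tested, the median log2 difference between the sexes was −0.54. Ciliated, alveolar type 2, fibroblast and mesothelial sums were lower in both males too. Alveolar type 1 and endothelial sums overlapped between the sexes. The part of these cells in the level of Cyp2s1 was not tested. Cyp2j9 was at 4.95 and 2.92 CPM in males and between 6.45 and 6.78 CPM in females (−0.72, limma adjusted p = 0.236). Cyp4f15 stood at 7.09 and 7.33 CPM in males and between 8.95 and 14.1 CPM in females (−0.61, limma adjusted p = 0.236). The sexes did not overlap for 7 of 27 members, beside 24% of all genes: Cyp4f18, Cyp4f13 and Cyp2r1 were above in males (9.28% of all genes were), and Cyp2s1, Cyp2j9, Cyp4f15 and Cyp20a1 below (14.7%). Cyp4f18 passed with no filter, quantile normalization or median centring and without the male labelled wild type; its limma adjusted p ran from 0.0433 to 0.187 over the alternatives. With 1 male left out other members passed as well: Cyp2b10 at 0.72 without the male labelled wild type, and Cyp2d22 at −0.67 and Cyp4b1 at −0.58 without the male labelled knockout. Cyp2a5 passed at 1.12 without labelled wild type 2.

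Each label holds 1 male, so the difference between the labels in males is one between 2 libraries, and those are the libraries that the leading principal components set apart. With an interaction term, 2 of 27 members passed the threshold, beside 2.54% of all genes, and both, Cyp2b10 and Cyp4b1, with the males' difference the more positive, as for 0.702% of all genes. Cyp2b10 was at 278 and 294 CPM in females labelled wild type and at 239 and 288 CPM in females labelled knockout, but at 221 and 434 CPM in the males so labelled. Its log2 difference was −0.12 in females and 0.98 in males, and the interaction was 1.10 (SE 0.20, limma adjusted p = 0.0325). Cyp4b1 was at 631 and 605 CPM in females labelled wild type and at 617 and 647 CPM in females labelled knockout, but at 413 and 767 CPM in the males. Its log2 difference was 0.03 in females and 0.89 in males, and the interaction was 0.86 (SE 0.18, limma adjusted p = 0.0490). The spread behind these p-values comes from the females, and the males are assumed to vary as they do, so a difference by sex and one of single libraries cannot be told apart. Both calls ended with no filter on low values and without labelled knockout 1 (limma adjusted p = 0.0856 and 0.143), and that of Cyp4b1 also without labelled knockout 2 (0.107), at a pseudocount of 0.1 (0.0515) and with quantile normalization (0.0692). Over all alternatives the adjusted p ran from 0.00657 to 0.198 for Cyp2b10 and from 0.0191 to 0.184 for Cyp4b1. Without labelled wild type 1, Cyp2a5 passed too, at an interaction of 1.81 (SE 0.17, limma adjusted p = 0.00209). For both genes the male labelled wild type was the lowest of the 6 libraries and the male labelled knockout the highest.

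Cyp2d22 and Cyp39a1 had the same order of males but passed only with median centring. Their interactions were 0.75 (SE 0.20, limma adjusted p = 0.106) and 0.83 (SE 0.23, limma adjusted p = 0.116). All 7 members for drugs and inhaled compounds that were tested had an interaction above 0, with a median of 0.75. Of all genes 39.5% did, with a median of −0.13. Under quantile normalization 6 of the 7 did. Cyp2s1 counts among the 7 at 0.01 and Cyp2f2 at 0.26, and all 7 values rest on the same male libraries. Of the members for fatty acids and eicosanoids, Cyp4b1 among them, 5 of 12 lay above 0, with a median of −0.08, and of those for sterols 4 of 6, with a median of 0.47. Median centring moved the median of all genes by 0.23, to 0.09. Over the 27 members 16 lay above 0, and under median centring 20. Of the 27 members, 8 had their lowest value in the male labelled wild type (29.6%, beside 18% of all genes) and 8 their highest in the male labelled knockout (29.6%, beside 17.6%). The other way, 6 had their highest value in the male labelled wild type (22.2%, beside 25.7%). A further 4 had their lowest in the male labelled knockout (14.8%, beside 37.5%).

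**Figure D5:**
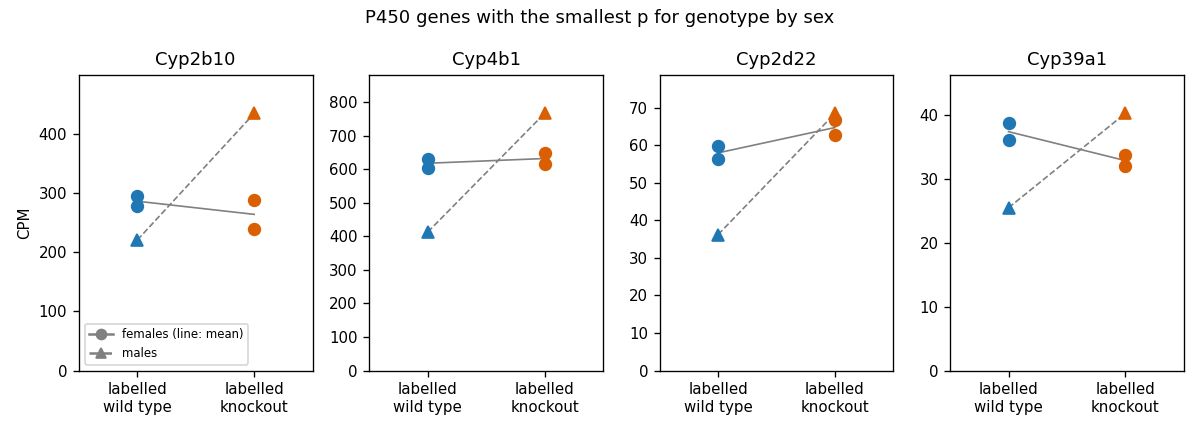
CPM of Cyp2b10, Cyp4b1, Cyp2d22 and Cyp39a1 in the 6 libraries by genotype label, with circles for females, triangles for males, a solid line between the means of the females and a dashed line between the males. The dashed line climbs from the lowest to the highest library in each of the 4 panels, while the females' means differ by at most 0.18 on the log2 scale.

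The males differed in other RNA too. Neutrophil markers are given above; 9 of the 11 passed the interaction test, all 9 upward, with Ngp, Mmp8, Retnlg and Camp among them. Endothelial markers, 11 of 11 found, summed to 3398 and 4789 CPM in the males labelled wild type and knockout and to between 4185 and 5127 CPM in the females. Of the 12 club cell markers, 5 had the higher value in the male labelled knockout and 7 in the one labelled wild type; the lower sum in the male labelled knockout is mostly Scgb1a1. B and T cell markers, 11 of 11 found, summed to 348 and 82.4 CPM in those males. The part of these cells in the P450 values was not tested, and library and genotype label cannot be told apart among the males.

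Of the marker lists for other cells, none had a gene past the threshold for genotype. For the interaction, Chil3 was the only macrophage marker of 9 to pass. For sex, Ccdc113 of 12 ciliated markers, Emcn of 11 endothelial markers, Upk3b and Krt19 of 6 mesothelial markers, and Alas2, which also stands in the haem list, and Slc4a1 of 7 erythroid markers passed. Summed levels over the 6 libraries were 368 to 784 CPM for ciliated markers, 15654 to 21932 CPM for alveolar type 2 markers, 3428 to 4880 CPM for alveolar type 1 markers, 3563 to 5553 CPM for fibroblast markers, 225 to 439 CPM for alveolar macrophage markers, 322 to 519 CPM for adipocyte markers, 284 to 514 CPM for mesothelial markers, 852 to 5913 CPM for erythroid markers and 8.02 to 16.9 CPM for the 2 adrenal markers found. The defining markers of lung epithelium were thus abundant in all 6 libraries, and those of liver summed to at most 16.4 CPM.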

How the data were processed

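The table the authors deposited gives CPM per gene for 6 lung libraries, with 0.0001 added to every value. Per the submitters' processing notes, TopHat2 and Partek were used with build mm10. Versions, annotation, filters and strand use are not given in any source used here, so overlapping, antisense and near-identical genes can share or lose reads. Values were not whole reads (82.2% to 83.4% whole within 0.05 of a read per library), so no count model was used. Depth was read from the steps between low values.

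limma 3.58.1 (R 4.3.3, variance trend, two-sided) was fitted to log2(CPM + 0.5) of the 17382 genes with a mean of at least 0.5 CPM, with genotype label and sex as terms, and again with their interaction; p-values were adjusted over all genes by the Benjamini-Hochberg method (threshold 0.05). Differences on this scale understate changes of low genes. The fit was tested on simulated data. Single genes also received an exact permutation test over 20 assignments (scipy 1.17.1).

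Transcript lengths, positions and sequences came from GENCODE M21 (mm10), where 21846 gene identifiers (99.75%) were found; length is that of the longest annotated transcript. Python 3.11.15, pandas 2.3.3, Biopython 1.88 and matplotlib 3.10.9 were used.

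The members and lists were chosen with earlier results of these data known. Values were given for the 12 members of highest per-length mean, those past a threshold, the 3 of smallest p per test, and those without overlap between labels. Of the lists, up to 4 genes past a threshold, or the 2 of smallest p, were to be named. No single gene of the alveolar type 1, alveolar type 2, fibroblast, adipocyte and adrenal lists is named. Bpifb1, Muc5b, Scgb1a1, Scgb3a1, Upk3a, Por, Fdxr, Nr1i2 and Nr1i3 are named outside that rule, after their values were seen. So are Ahsg, Apoa1, Apoa2, Apoc3, Fgb, Serpina1b and Ttr of the hepatocyte list. The genes past a threshold in the B and T cell list are not reported here. Alternatives were pseudocounts of 0.1 and 1, no filter or a mean of at least 1 CPM, quantile normalization, median centring, no sex term, the females alone, coding length, and leaving out each library.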

Additional observations from a re-analysis of the deposited data

Results flagged for a closer look

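The interaction term of limma compares the difference between the genotype labels in males with that in females. Cyp2b10 and Cyp4b1 passed its threshold, 2 of 27 members beside 2.54% of all genes. Both calls ended with no filter on low values. That of Cyp4b1 also ended at a pseudocount of 0.1 and with quantile normalization. The interaction was 1.10 on the log2 scale for Cyp2b10 (SE 0.20, limma adjusted p = 0.0325) and 0.86 for Cyp4b1 (SE 0.18, limma adjusted p = 0.0490). In both genes the male labelled knockout was above all 5 other libraries and the male labelled wild type below all 5. Each label holds 1 male, so the value for males is a difference between 2 libraries, and a difference by sex and one of single libraries cannot be told apart.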

How the results depend on the processing

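No paired analysis was possible because the labels carry no replicate numbers; the numbers 1 to 3 used here follow deposit order and pair nothing. For genotype, 0 members passed under each of the 14 alternatives. Leaving out either male gives the same differences as the females alone, since the sex term then takes up the remaining male. Those alternatives are therefore not separate checks. Sign turned for Cyp2b10 (−0.12) and Cyp39a1 (−0.18) in the females alone, for Cyp2s1 with median centring (0.055), and for Cyp20a1 with quantile normalization (0.038) and median centring (0.049). Leaving out each library, differences ranged from −0.12 to 0.42 for Cyp2b10, from −0.18 to 0.20 for Cyp39a1, from −0.17 to 0.07 for Cyp2s1, from −0.36 to 1.001 for Cyp2a5 and from −0.17 to 0.04 for Cyp20a1.

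For sex, 1 member passed with no filter, quantile normalization or median centring (Cyp4f18 each time), and between 0 and 2 with a library left out: Cyp2a5 without labelled wild type 2, Cyp4f18 and Cyp2b10 without labelled wild type 3, and Cyp2d22 and Cyp4b1 without labelled knockout 3. For the interaction, 1 passed at a pseudocount of 0.1 (Cyp2b10), 0 with no filter, 1 with quantile normalization (Cyp2b10) and 4 with median centring (Cyp2b10, Cyp4b1, Cyp2d22 and Cyp39a1). With a female left out between 0 and 3 passed: 3 without labelled wild type 1 (Cyp2a5 in addition), 0 without labelled knockout 1 and 1 without labelled knockout 2 (Cyp2b10); no interaction can be fitted without a male. The share of all genes that passed was taken for the main fit only, at 0.834% for sex and 2.54% for the interaction. The counts under the alternatives therefore have no such share to be read against. The cause was not tested.

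The share of Cyp2f2 was between 68.9% and 70.9% with a library left out and 67.2% by coding length. The interaction rests on 1 male per label, and members under 1 CPM rest on few reads.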
